A study of Mus musculus with 12 samples.

Results

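The 9 genes described here encode insulin-like growth factor 1 (Igf1), the receptors Igf1r and Igf2r, and the binding proteins Igfbp2 to Igfbp7. They were named as a family and found by symbol among the 20201 genes of the deposited table. The rule uses their names alone, although the family was picked with earlier results of these data known. All 9 were found, and all 9 passed a minimum mean of 10 normalized counts, as did 12553 genes in all. RNA had been sequenced from primary myotubes, which are multinucleated muscle cells grown by fusing myoblasts in culture. The source mice carried floxed Bmal1 alleles, and so did every library, and every culture received an adenovirus for 48 hours and then a set oxygen level for 6 hours. The 6 libraries labelled Bmal1 knockout had received the Cre recombinase virus and carry a label of 1% oxygen. The 6 libraries labelled wildtype had received an empty virus and carry a label of 21% oxygen; they are floxed cells without Cre, not cells of an unmodified strain.

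Insulin-like growth factors are secreted hormones that also act locally, and in muscle IGF1 and IGF2 promote myoblast differentiation, fibre growth and repair. Both signal through the IGF1 receptor, a tyrosine kinase that feeds the PI3K, AKT and mTORC1 branch, whereas the IGF2 receptor removes IGF2 from the cell surface and carries enzymes to lysosomes. Most of the secreted ligand is held by binding proteins, which prolong its life, keep it from the receptor or release it when proteases cut them, and some of which also act on cells without the ligand.

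The libraries held 6376584 to 12463339 recovered reads, so that 3 reads, taken as the counting floor, equalled 2.12 to 5.85 normalized counts; such floors cover counting error only. Wildtype replicate 2 had the fewest reads and 29.6% of genes at 0, against 13.0% to 21.9% in the others. Knockout replicate 4, with 6671694 reads, had the highest floor, 5.85 normalized counts against 4.65 in wildtype replicate 2. The 8 most abundant genes held from 49.2% of the reads in wildtype replicate 4 to 65.4% in knockout replicate 4. The sample titles run from 1 to 12 and fall into 4 runs of 3: knockout replicates 1 to 3 are titles 4 to 6, knockout replicates 4 to 6 are titles 10 to 12, wildtype replicates 1 to 3 are titles 1 to 3, and wildtype replicates 4 to 6 are titles 7 to 9. The targeted gene Arntl, the older symbol of Bmal1, ranged over 41.7 to 48.6 normalized counts where the label was knockout and over 133 to 179 where it was wildtype. Its log2 difference was -1.78 (two-sided exact permutation test, p = 0.00216, the smallest that 6 against 6 libraries can give), and Nr1d1, a direct BMAL1 target, differed by -3.42 with the same exact permutation p. The oxygen label was not matched. Egln3, which low oxygen induces, lay at 2036 to 2143 in knockout replicates 4 to 6 and at 194 to 262 in knockout replicates 1 to 3, against 2199 to 2258 in wildtype replicates 4 to 6 and 241 to 270 in wildtype replicates 1 to 3. Knockout replicates 1 to 3 and wildtype replicates 4 to 6 thus go against their oxygen label. No library was moved, nothing below is attributed to oxygen, and the label difference of each member is given within titles 1 to 6, within titles 7 to 12 and without those 6 libraries as well. In the labels genotype, virus and oxygen go together, so their parts in a label difference cannot be told apart. The labels name no animal, culture or batch, so p-values measure the spread among the libraries alone, and that spread may be technical.

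Across all 12 libraries Igf1, Igfbp5, Igfbp6 and Igfbp7 rose where the label was knockout, by 1.74-, 1.48-, 1.50- and 1.35-fold, and no member fell. Thus 4 of 9 members passed a limma adjusted p of 0.05 as higher, where 10.2% of all tested genes did, and 0 of 9 passed as lower, where 9.07% of all tested genes did. For the falls, 0 of 9 members was also the count by edgeR and by DESeq2, and in this limma fit no member had a negative fold change at any unadjusted p. At an unadjusted p under 0.05, 6 of 9 members differed, as 31.7% of all tested genes did. All 9 fold changes were positive in the unweighted fit of the deposited values, and their median was 0.47 on the log2 scale against -0.00147 over all tested genes. That of Igf1r turned negative with the most abundant genes left out and with library weights. With the title run as an additive term over the same 12 libraries Igf2r, Igfbp3 and Igfbp4 rose too (limma adjusted p = 0.00292, 6.05e-05 and 0.000135), making 7 of 9 members where 15.9% of all tested genes rose. The same 4 members had all 6 libraries labelled knockout above all 6 labelled wildtype, as 7.07% of tested genes did. In bulk RNA, fewer cells of a type and less RNA per cell cannot be told apart.

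**Figure D1:**
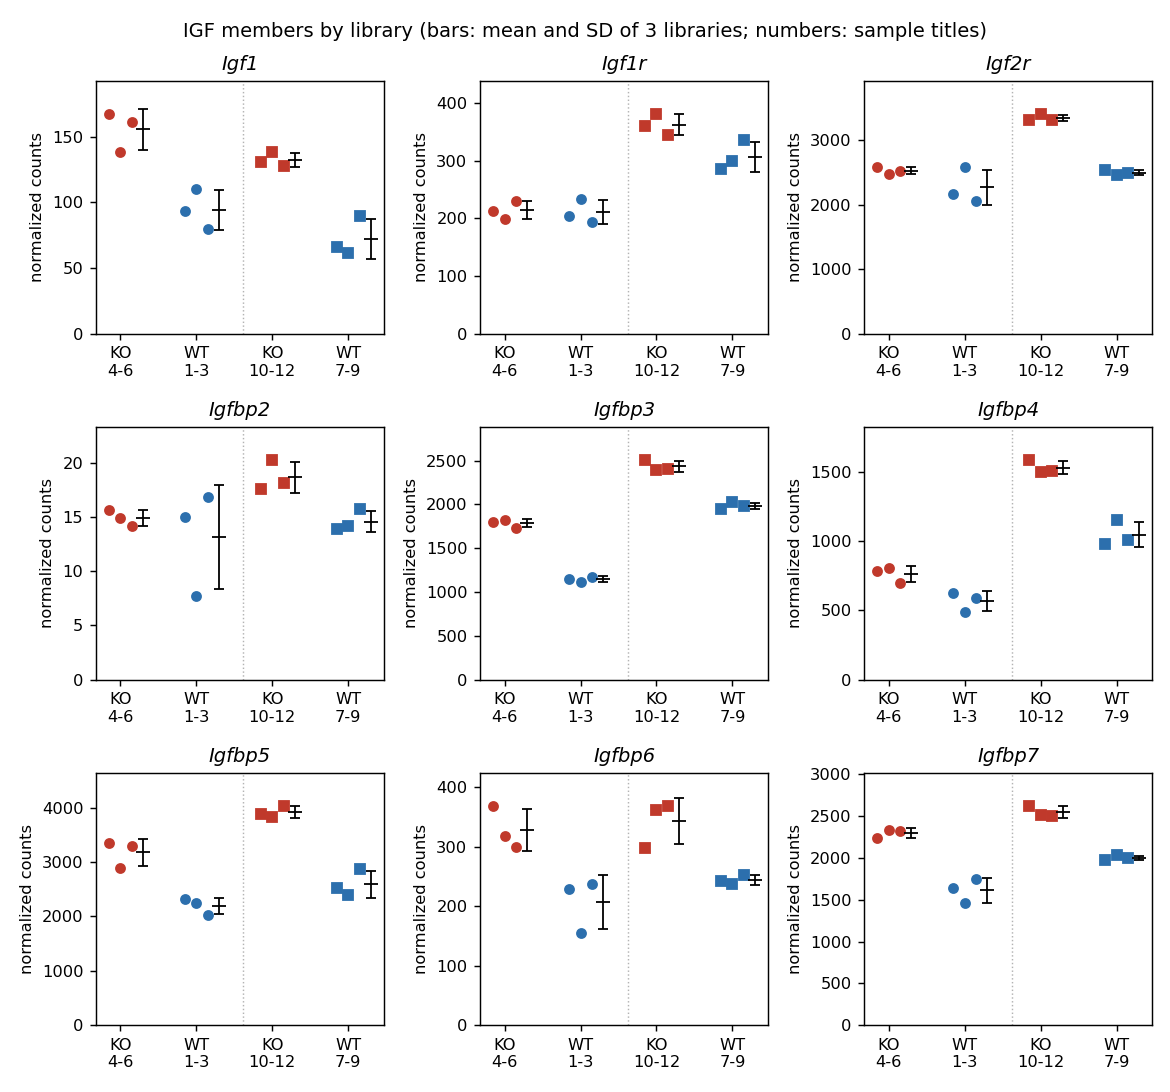
Normalized counts of the 9 members in each of the 12 libraries, by run of sample titles, with knockout runs left of wildtype runs in each pair and bars for the mean and SD of 3 libraries. In Igf1, Igfbp5, Igfbp6 and Igfbp7 every library labelled knockout lies above every library labelled wildtype. In Igf1r, Igfbp3, Igfbp4, Igfbp5 and Igfbp7 the later titles lie above the earlier ones within either label.

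The ligand gene Igf1 (ENSMUSG00000020053) lies at chr10:87858265-87937042 on the plus strand of GRCm38 (mm10) and encodes the growth factor that muscle makes for itself and that also circulates from the liver. In normalized counts it was measured at 167, 138 and 162 in knockout replicates 1 to 3, at 131, 139 and 128 in knockout replicates 4 to 6, at 93.3, 110 and 79.4 in wildtype replicates 1 to 3, and at 65.7, 61.5 and 89.9 in wildtype replicates 4 to 6. The lowest knockout library lay above the highest wildtype library. The means were 144 ± 16.5 in knockout and 83.3 ± 18.2 in wildtype libraries (SD, n = 6 each), a log2 fold change of 0.80 (SE 0.14, limma adjusted p = 0.00149). Igf1 rose in both title runs, by 0.88 within titles 7 to 12 (limma adjusted p = 0.00329) and by 0.73 within titles 1 to 6 (limma adjusted p = 0.00908). Without the 6 libraries that go against the oxygen label, 3 knockout and 3 wildtype libraries remain; Igf1 then differed by 0.50 and no longer passed (limma adjusted p = 0.0624). The antisense gene Igf1os overlaps Igf1 and is not among the measured genes. The library kit marks strand, but whether the counting used it is not stated in the sources at hand.

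Promoters, taken as 250 bases before to 50 bases after each start in the RefSeq annotation of GRCm38.p6, matched all 9 members, with 2 starts for Igfbp2. Both strands were searched for 4 strings. The string CACGTG is the E-box to which the clock factors CLOCK and BMAL1 bind. The shorter ACGTG, called the hypoxia core below, is a form of the core of the site for the hypoxia-inducible factors. Other forms of that core were not searched. Nuclear receptors such as the clock protein encoded by Nr1d1 bind sites built on AGGTCA, with further letters that were not searched. The string TATAAA is the core of the TATA box, which as a promoter element lies a short way before the start along the gene. The search for the hypoxia core also finds every E-box, whose last letters it is. Across 32851 mouse promoters 7.15% held the E-box, 19.6% the hypoxia core, 16.3% the nuclear receptor site and 13.6% TATAAA. Among the 10 member promoters the E-box was found in 2, those of Igf2r and of the first Igfbp2 start, and the hypoxia core in 3, those same promoters and that of Igfbp7, at 175 bases before the start. The nuclear receptor site was found in the promoters of Igf1, Igf1r and Igf2r and TATAAA in those of Igfbp4, 28 bases before the start on the strand of the gene, and Igfbp6, on the opposite strand. A match is a string of letters in this window and no measure of binding, and a window without one says nothing of the factor. The RefSeq starts can differ from the gene positions given in this report. The Igf1 window begins at 87860861, inside the gene, which begins at 87858265. Those of Igf1r and Igfbp6 end at 67952306 and 102144235, before the gene positions, which begin at 67952827 and 102144362. The promoters below are those of the members with the largest rises, Igf1 and Igfbp6, beside those of the members that hold the E-box, neither of which passed the test in the libraries as labelled. Capitals mark the first 3 of these strings on either strand, and each is printed 5′ to 3′ along its gene.
Igf1, chr10:87860861-87861160, plus strand: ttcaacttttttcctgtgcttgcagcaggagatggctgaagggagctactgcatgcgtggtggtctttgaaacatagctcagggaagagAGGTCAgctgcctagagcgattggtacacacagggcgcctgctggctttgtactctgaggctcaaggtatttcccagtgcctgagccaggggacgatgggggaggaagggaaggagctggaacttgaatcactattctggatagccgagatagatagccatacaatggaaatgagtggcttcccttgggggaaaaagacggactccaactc
Igfbp6, chr15:102143936-102144235, plus strand: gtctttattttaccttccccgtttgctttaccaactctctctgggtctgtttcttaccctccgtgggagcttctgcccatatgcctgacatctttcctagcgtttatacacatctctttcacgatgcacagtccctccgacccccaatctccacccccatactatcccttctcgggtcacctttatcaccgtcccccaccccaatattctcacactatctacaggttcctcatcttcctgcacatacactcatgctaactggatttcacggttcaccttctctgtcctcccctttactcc
Igf2r, chr17:12769657-12769956, minus strand: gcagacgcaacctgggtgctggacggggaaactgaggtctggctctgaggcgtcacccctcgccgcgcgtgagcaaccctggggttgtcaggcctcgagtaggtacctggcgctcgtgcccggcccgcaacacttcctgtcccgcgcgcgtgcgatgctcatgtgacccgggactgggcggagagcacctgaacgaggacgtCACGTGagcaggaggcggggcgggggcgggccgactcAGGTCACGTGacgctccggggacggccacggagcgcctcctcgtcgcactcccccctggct
Igfbp2, chr1:72824230-72824529, plus strand: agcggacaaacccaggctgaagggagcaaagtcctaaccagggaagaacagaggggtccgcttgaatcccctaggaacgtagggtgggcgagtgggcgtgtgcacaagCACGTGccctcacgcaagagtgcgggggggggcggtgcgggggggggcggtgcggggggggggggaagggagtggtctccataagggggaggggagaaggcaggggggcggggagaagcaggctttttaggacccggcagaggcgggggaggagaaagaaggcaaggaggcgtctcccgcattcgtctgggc
The Igf1 promoter holds 1 nuclear receptor site, 161 bases before the start, and the Igfbp6 promoter holds none of the first 3 strings; its TATAAA match on the opposite strand, left in lower case, lies 148 bases before the start. The Igf2r promoter holds the E-box at 48 and at 7 bases before the start, and the nearer one overlaps a nuclear receptor site that begins 11 bases before the start. In the Igfbp2 promoter the single E-box begins 142 bases before the start.

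Neither receptor gene passed the test between the labelled groups. Igf1r (ENSMUSG00000005533, chr7:67952827-68233668, plus strand), which encodes the signalling receptor, was measured, in normalized counts, at 213, 199 and 231 in knockout replicates 1 to 3, at 361, 381 and 345 in knockout replicates 4 to 6, at 204, 234 and 194 in wildtype replicates 1 to 3, and at 285, 299 and 335 in wildtype replicates 4 to 6. The labelled groups overlapped, whereas within each label the later titles all lay above the earlier ones. The means were 288 ± 82.5 in knockout and 259 ± 56.4 in wildtype libraries (SD, n = 6 each), a log2 fold change of 0.13 (SE 0.19, 95% interval -0.28 to 0.55, limma adjusted p = 0.698). Within titles 7 to 12 the difference was 0.24 and within titles 1 to 6 it was 0.02, neither of them past the threshold (limma adjusted p = 0.130 and 0.897). The sign of the 12-library value depended on the processing: it was -0.031 when the most abundant genes were left out and -0.048 with library weights.

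Igf2r (ENSMUSG00000023830, chr17:12682406-12769664, minus strand), the clearance receptor for IGF2 and an imprinted gene, was measured, in normalized counts, at 2585, 2485 and 2522 in knockout replicates 1 to 3 and at 3324, 3410 and 3317 in knockout replicates 4 to 6. In wildtype replicates 1 to 3 the values were 2169, 2583 and 2062, and in wildtype replicates 4 to 6 they were 2538, 2469 and 2500. Knockout replicates 4 to 6 stood apart above the other 9 libraries. The log2 fold change of 0.29 (SE 0.10) missed the threshold over all 12 libraries (limma adjusted p = 0.0592). It passed by edgeR (adjusted p = 0.0412) and by DESeq2 (adjusted p = 0.0377) on the recovered reads, and with the title run as an additive term (limma adjusted p = 0.00292). Igf2r rose by 0.42 within titles 7 to 12 (limma adjusted p = 0.00193), and differed by 0.16 within titles 1 to 6 (limma adjusted p = 0.141). Without wildtype replicate 2, the library with the fewest reads, the value within titles 1 to 6 was 0.26 and passed (limma adjusted p = 0.00261). The antisense RNA Airn overlaps Igf2r and was measured at 8.71 to 39.3 normalized counts, against 2062 or more for Igf2r.

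Igfbp5 (ENSMUSG00000026185, chr1:72857932-72874884, minus strand) encodes the binding protein that differentiating myoblasts secrete, and it had the most normalized counts of the binding protein genes. In normalized counts it was measured at 3356, 2898 and 3292 in knockout replicates 1 to 3, at 3878, 3833 and 4036 in knockout replicates 4 to 6, at 2315, 2250 and 2032 in wildtype replicates 1 to 3, and at 2517, 2393 and 2864 in wildtype replicates 4 to 6. All 6 knockout libraries lay above all 6 wildtype libraries, the closest pair being knockout replicate 2 and wildtype replicate 6. The means were 3549 ± 437 in knockout and 2395 ± 281 in wildtype libraries (SD, n = 6 each), a log2 fold change of 0.57 (SE 0.096, limma adjusted p = 0.00101). It rose by 0.60 within titles 7 to 12 (limma adjusted p = 0.000414) and by 0.53 within titles 1 to 6 (limma adjusted p = 0.000634). Igfbp5 and Igfbp2 are neighbours on chromosome 1, on opposite strands.

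Igfbp6 (ENSMUSG00000023046, chr15:102144362-102149511, plus strand) encodes the binding protein that prefers IGF2 to IGF1. In normalized counts it was measured at 368, 317 and 299 in knockout replicates 1 to 3, at 298, 362 and 369 in knockout replicates 4 to 6, at 229, 155 and 238 in wildtype replicates 1 to 3, and at 243, 237 and 253 in wildtype replicates 4 to 6. The groups did not overlap, and wildtype replicate 2 lay far below the other wildtype libraries. The means were 336 ± 34.4 in knockout and 226 ± 35.6 in wildtype libraries (SD, n = 6 each), a log2 fold change of 0.58 (SE 0.12, limma adjusted p = 0.00372). It rose by 0.48 within titles 7 to 12 (limma adjusted p = 0.0475) and by 0.68 within titles 1 to 6 (limma adjusted p = 0.00804). The call within titles 7 to 12 was lost in 8 of the fits that left out 1 library, the exceptions being those without wildtype replicates 1, 2 or 3 or knockout replicate 4 (limma adjusted p between 0.00365 and 0.145 over all of these fits). It was also lost with no filter on low values (limma adjusted p = 0.0632), with upper-quartile scaling (0.0993) and with the most abundant genes left out (0.175).

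Igfbp7 (ENSMUSG00000036256, chr5:77349240-77408041, minus strand) encodes a distant relative of the other binding proteins, with weak affinity for IGFs and a place in the vascular basement membrane. In normalized counts it was measured at 2228, 2330 and 2323 in knockout replicates 1 to 3, at 2620, 2510 and 2493 in knockout replicates 4 to 6, at 1632, 1454 and 1750 in wildtype replicates 1 to 3, and at 1974, 2027 and 1993 in wildtype replicates 4 to 6. The groups did not overlap. Means of 2417 ± 147 in knockout and 1805 ± 232 in wildtype libraries (SD, n = 6 each) gave a log2 fold change of 0.43 (SE 0.085, limma adjusted p = 0.00299). It rose by 0.35 within titles 7 to 12 (limma adjusted p = 0.00362) and by 0.51 within titles 1 to 6 (limma adjusted p = 0.000210). Beside this gene, Cdh5 and Pecam1, which mark endothelial cells, rose as well, by 0.56 (limma adjusted p = 0.000211) and 0.43 (limma adjusted p = 0.0247), and both passed within either title run and without the libraries that go against the oxygen label. The sum of the 5 endothelial markers ran from 1284 to 1542 normalized counts in knockout and from 927 to 1047 in wildtype libraries, none of the 5 was at 0, and its part in the Igfbp7 difference was not tested. Polr2b, which overlaps Igfbp7 on the opposite strand, was measured at 363 to 579 normalized counts.

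Igfbp3 and Igfbp4 missed the threshold over all 12 libraries by the label alone, yet passed within each title run and with the run as an additive term. Igfbp3 (ENSMUSG00000020427, chr11:7206086-7213923, minus strand), the main carrier of IGFs in blood, was measured, in normalized counts, at 1805, 1824 and 1734 in knockout replicates 1 to 3, at 2509, 2398 and 2401 in knockout replicates 4 to 6, at 1153, 1112 and 1174 in wildtype replicates 1 to 3, and at 1950, 2023 and 1976 in wildtype replicates 4 to 6. Knockout lay above wildtype in either title run, but wildtype replicates 4 to 6 lay above knockout replicates 1 to 3. The fold change over 12 libraries was 0.47 (log2, SE 0.18, limma adjusted p = 0.0890). Igfbp3 rose by 0.30 within titles 7 to 12 (limma adjusted p = 0.00228) and by 0.64 within titles 1 to 6 (limma adjusted p = 7.84e-06).

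Igfbp4 (ENSMUSG00000017493, chr11:99041244-99054392, plus strand) encodes a binding protein that holds IGFs from their receptor until the protease PAPP-A cuts it. In normalized counts it was measured at 784, 805 and 702 in knockout replicates 1 to 3, at 1589, 1501 and 1509 in knockout replicates 4 to 6, at 626, 488 and 592 in wildtype replicates 1 to 3, and at 980, 1150 and 1009 in wildtype replicates 4 to 6. The 4 runs did not overlap one another, and the order was knockout then wildtype among the later titles, then knockout then wildtype among the earlier ones. Over 12 libraries the log2 fold change was 0.49 (SE 0.27, limma adjusted p = 0.234). It rose by 0.55 within titles 7 to 12 (limma adjusted p = 0.00210) and by 0.43 within titles 1 to 6 (limma adjusted p = 0.00861).

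Igfbp2 (ENSMUSG00000039323, chr1:72824503-72852474, plus strand), a binding protein that also binds integrins, was the least abundant member, with 5 to 22 reads per library. In normalized counts it was measured at 15.7, 14.9 and 14.2 in knockout replicates 1 to 3, at 17.5, 20.3 and 18.1 in knockout replicates 4 to 6, at 14.97, 7.74 and 16.8 in wildtype replicates 1 to 3, and at 13.9, 14.1 and 15.7 in wildtype replicates 4 to 6. The groups overlapped, and the lowest value rests on 5 reads. No difference was detectable at this depth: the log2 fold change was 0.28 (SE 0.22, 95% interval -0.20 to 0.76, limma adjusted p = 0.431), with 0.33 within titles 7 to 12 and 0.23 within titles 1 to 6 (limma adjusted p = 0.538 and 0.653).

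Set against the background of each title run, 7 of 9 members rose within titles 7 to 12, where 8.84% of tested genes did, and 6 of 9 within titles 1 to 6, where 10.8% did. Igf1, Igfbp3, Igfbp4, Igfbp5, Igfbp6 and Igfbp7 passed in both, and Igf2r passed within titles 7 to 12. Knockout libraries lay above wildtype libraries in all 9 members within titles 7 to 12, as in 21.0% of tested genes, and in 6 of 9 within titles 1 to 6, as in 18.0%. With the 8 most abundant genes left out, the same 4 members rose over 12 libraries, where 4.89% of genes did. The calls within titles 7 to 12 came to 4 members (Igf1, Igf2r, Igfbp4 and Igfbp5) in that setting, where 4.26% of the genes rose. Those within titles 1 to 6 came to 5, as Igfbp4 was lost, where 5.68% of genes rose.

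**Figure D2:**
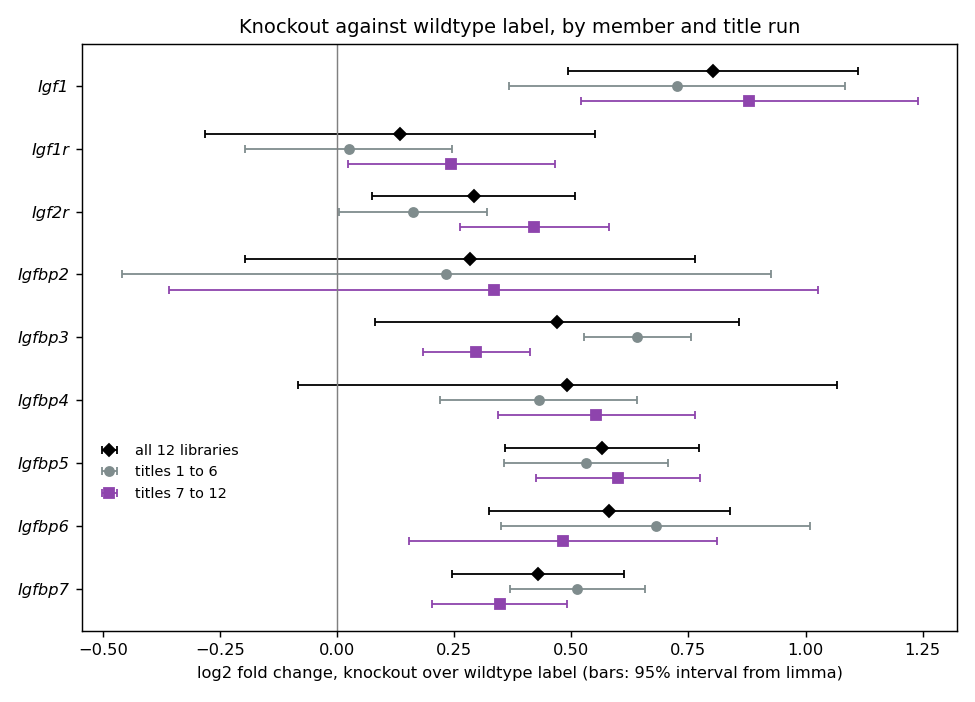
Log2 fold change of each member, knockout over wildtype label, over all 12 libraries and within each title run, with 95% intervals from limma. All points lie right of 0; the interval of Igfbp4 spans 0 over 12 libraries and lies above 0 within either title run.

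The knockout against wildtype label difference was compared between the title runs by a direct test. By limma 0 of 9 members passed, and 1 gene of 12553 (0.00797%) did. Of the same 12553 genes edgeR called 0, so no member, and DESeq2 called 29, of which 1 was a member. At an unadjusted limma p under 0.05 there were 2 members, and 8.52% of all tested genes. Igfbp3 had the smaller effect within titles 7 to 12, with a difference between the runs of -0.34 (log2, SE 0.075, limma adjusted p = 0.336), which was the member DESeq2 called (-0.34, adjusted p = 0.00731). Igf2r had the larger effect within titles 7 to 12, with a difference of 0.26 (log2, limma adjusted p = 0.562).

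Without knockout replicates 1 to 3 and wildtype replicates 4 to 6, the libraries that go against the oxygen label, 7 members rose, where 14.5% of all tested genes did. Igfbp4 differed by 1.44, Igfbp3 by 1.09, Igfbp5 by 0.83, Igf1r by 0.78, Igfbp6 by 0.74, Igfbp7 by 0.66 and Igf2r by 0.57 on the log2 scale (limma adjusted p = 9.74e-05, 3.72e-05, 0.000207, 0.00246, 0.0216, 0.00122 and 0.00365). Igf1 at 0.50 and Igfbp2 at 0.53 missed the threshold (limma adjusted p = 0.0624 and 0.385). In that comparison the label and the title run coincide and cannot be told apart.

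Within a label, the later titles had higher levels of more members than the earlier ones. In the knockout libraries replicates 4 to 6 lay above replicates 1 to 3 without overlap in 7 members, as 19.9% of tested genes did. Among the wildtype libraries replicates 4 to 6 lay above replicates 1 to 3 in 5 members, as 17.6% of tested genes did. No member lay lower without overlap. The share of all tested genes that lay lower was not counted, so this has no background to be set against. Igfbp4 was farthest apart, at 1533 ± 48.9 normalized counts in knockout replicates 4 to 6 and 764 ± 54.4 in knockout replicates 1 to 3, and at 1046 ± 91.2 in wildtype replicates 4 to 6 and 569 ± 72.0 in wildtype replicates 1 to 3 (SD, n = 3 each). That is a log2 difference of 1.01 in the knockout and 0.88 in the wildtype libraries. Igf1r differed by 0.76 in knockout and 0.54 in wildtype libraries, and Igfbp3 by 0.45 and 0.79 in the same order. Igf1 was the exception in sign, with -0.23 in knockout and -0.38 in wildtype libraries, and its title runs overlapped within either label. These values describe the runs and were not tested, since the labels do not say what sets the titles apart; Egln3 moves with the same runs.

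**Figure D3:**
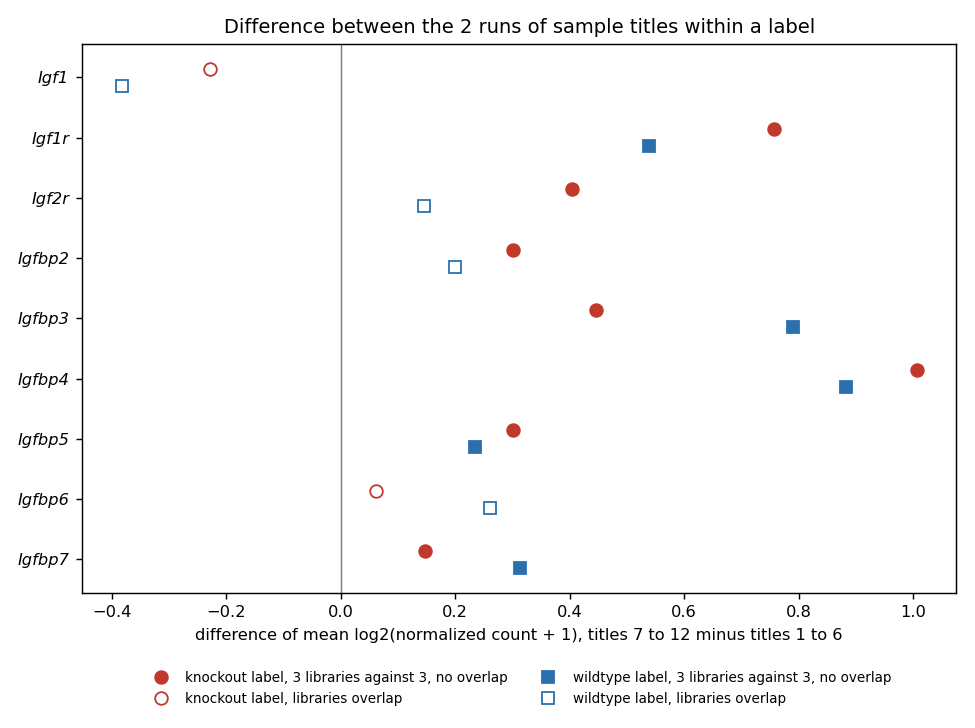
Difference of the mean log2(normalized count + 1) between titles 7 to 12 and titles 1 to 6, for each member, in the knockout libraries (circles) and the wildtype libraries (squares), 3 libraries against 3. Filled symbols mark runs that did not overlap; Igfbp4 reaches 1.01 in knockout and 0.88 in wildtype libraries, and Igf1 alone lies left of 0.

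To compare levels between genes, normalized counts were divided by the exon length of each gene in kilobases. That length joins all annotated exons of a gene, which a given transcript need not hold. Ranks and ratios between genes rest on this choice. Igfbp7 held the highest level of the binding proteins, at 2000 ± 121 normalized counts per kilobase in knockout and 1493 ± 192 in wildtype libraries (SD, n = 6 each). Igfbp3 followed at 675 ± 115 in knockout and 500 ± 147 in wildtype libraries, and Igfbp5 at 591 ± 72.7 in knockout and 399 ± 46.7 in wildtype libraries. The ranges of Igfbp3 and Igfbp5 overlapped in both groups. Within a library Igfbp3 lay above Igfbp5 in 6 of 6 knockout and 4 of 6 wildtype libraries, the exceptions being among wildtype replicates 1 to 3. Igfbp6 at 302 ± 31.0 in knockout and 203 ± 32.0 in wildtype libraries also overlapped with Igfbp4, at 260 ± 96.0 in knockout and 183 ± 61.5 in wildtype libraries; Igfbp6 was the higher in knockout replicates 1 to 3 and in wildtype replicates 1 to 3, and Igfbp4 in the later titles of either label. Igfbp2 lay far lower, at 9.09 ± 1.23 in knockout and 7.51 ± 1.73 in wildtype libraries.

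Summed per kilobase, the 6 binding proteins reached 4198 ± 49.4 in knockout replicates 4 to 6, 3474 ± 18.9 in knockout replicates 1 to 3, 3182 ± 52.4 in wildtype replicates 4 to 6 and 2388 ± 177 in wildtype replicates 1 to 3 (SD, n = 3 each). Igfbp7 made up 52.3% ± 2.75 of the sum in knockout and 53.9% ± 2.34 in wildtype libraries (SD, n = 6 each). Within titles 7 to 12 that share ran from 49.3% to 51.0% in knockout and from 51.2% to 52.3% in wildtype libraries, without overlap. Within titles 1 to 6 it ran from 52.7% to 55.6% in knockout and from 54.9% to 57.5% in wildtype libraries, and these overlapped. Between title runs the share of Igfbp4 was 8.27% ± 0.169 in knockout replicates 4 to 6 and 4.98% ± 0.342 in knockout replicates 1 to 3, and 7.44% ± 0.597 in wildtype replicates 4 to 6 and 5.38% ± 0.358 in wildtype replicates 1 to 3.

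**Figure D4:**
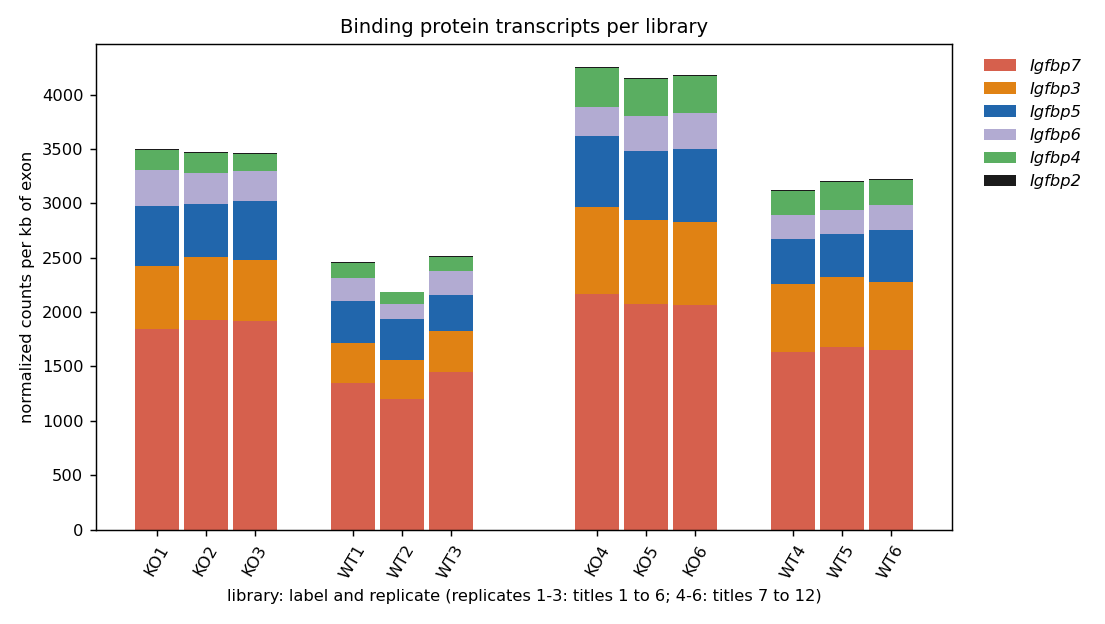
Normalized counts per kilobase of exon of the 6 binding protein genes, stacked for each of the 12 libraries, with knockout libraries left of wildtype libraries in each title run. The bars average 4198 in knockout and 3182 in wildtype replicates 4 to 6, and 3474 in knockout and 2388 in wildtype replicates 1 to 3; Igfbp7 fills the largest segment of each bar.

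Among the other genes of the pathway, 58 of 62 listed were tested in the labelled libraries. Of these, 7 rose, 3 fell and 48 did not pass the limma test, where 10.2% of all tested genes rose and 9.07% fell. The same shares stand beside the counts of each list over the 12 libraries. The median log2 fold change of the 58 was 0.03 against -0.00147 over all tested genes. Within titles 7 to 12, 8 of the 58 rose and 5 fell, where 1110 (8.84%) and 959 of all 12553 tested genes did. Within titles 1 to 6, 8 rose and 7 fell, where 1357 (10.8%) and 1001 of all tested genes did. Without the libraries that go against the oxygen label 17 rose and 4 fell, where 1816 (14.5%) and 1272 of all tested genes did. The ligand Igf2, the fetal growth factor that myotubes make in quantity, rose. Its values were 6296, 6842 and 7680 normalized counts as the lowest, median and highest of 6 knockout libraries, against 3150, 3936 and 4698 in 6 wildtype libraries. These groups did not overlap, and the log2 fold change was 0.82 (SE 0.089, limma adjusted p = 3.30e-05). Igf2 also rose within titles 7 to 12 by 0.76, within titles 1 to 6 by 0.89 and without the libraries that go against the oxygen label by 0.96 (limma adjusted p = 0.000572, 0.000130 and 0.000968). Per kilobase Igf2 averaged 1206 ± 83.4 in knockout and 686 ± 94.2 in wildtype libraries, far above Igf1 at 14.5 ± 1.66 in knockout and 8.41 ± 1.83 in wildtype libraries (SD, n = 6 each). Insr and Ghr, the receptors for insulin and growth hormone, missed the threshold, at -0.39 and -0.086 (limma adjusted p = 0.236 and 0.532). Insrr, Igfals and Igfbpl1 lay under the minimum, and Igfbp1 is not among the genes of the table.

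Of the 7 proteases that cut binding proteins and their inhibitors, 0 passed as higher or lower by limma, edgeR or DESeq2, and 0 had an unadjusted limma p under 0.05 over the 12 libraries as labelled. Within titles 1 to 6, Htra3, a serine protease, rose by 0.69 and Stc2, a stanniocalcin that inhibits PAPP-A, fell by 0.52 on the log2 scale (limma adjusted p = 0.0387 and 0.0102), both named after their values had been seen. Within titles 7 to 12, 0 of the 7 passed. Without the libraries that go against the oxygen label, where label and title run coincide, 4 rose and 1 fell. The risers were Stc1 at 2.38, Stc2 at 1.86, Htra3 at 1.71 and Htra1 at 0.46 (limma adjusted p = 4.30e-05, 0.000142, 0.00271 and 0.0464). Stc2 thus changed sign from its value within titles 1 to 6. Pappa, the gene of PAPP-A, fell, at -0.93 (limma adjusted p = 0.00124). These genes too were named after their values had been seen. The most abundant, Adam12, which cuts Igfbp3 and Igfbp5, averaged 926 ± 86.9 normalized counts in knockout and 839 ± 63.0 in wildtype libraries (SD, n = 6 each; log2 fold change 0.14, limma adjusted p = 0.225). Among 12 receptor adaptors and phosphatases 1 rose and 2 fell. Ptpn11, the phosphatase SHP2, rose by 0.50 (limma adjusted p = 0.00460). Grb14, an adaptor that inhibits the insulin receptor, fell to 21.0 ± 7.98 normalized counts in knockout libraries, against 43.2 ± 7.92 in wildtype libraries (log2 fold change -1.07, limma adjusted p = 0.00656). Socs2, which restrains growth hormone signalling, fell by 0.76 on the log2 scale (limma adjusted p = 0.00325). Ptpn11 and Socs2 passed within either title run, whereas the fall of Grb14 did not pass within titles 1 to 6 alone (-0.92, limma adjusted p = 0.0704). Without the libraries that go against the oxygen label Socs2 still fell, and Ptpn11 at 0.35 and Grb14 at -0.79 missed the threshold (limma adjusted p = 0.145 and 0.105).

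In the PI3K, AKT and mTORC1 list 3 of 20 genes rose and 1 fell. Rps6, the ribosomal protein phosphorylated below mTORC1, rose by 0.41 (limma adjusted p = 0.00244), and Gsk3a, a kinase that AKT inhibits, by 0.37 (limma adjusted p = 0.00122). The other riser, Akt1, one of the AKT kinases, was named after its values had been seen and rose by 0.36 (limma adjusted p = 0.00693). Pik3cb, a catalytic subunit of PI3K, fell to 43.6 ± 6.09 normalized counts in knockout libraries, against 69.9 ± 6.61 in wildtype libraries (log2 fold change -0.68, limma adjusted p = 0.00183). These 4 genes passed within either title run; without the libraries that go against the oxygen label Akt1, at 0.17, did not (limma adjusted p = 0.215). A list of 13 genes held brakes on the branch together with the factors Foxo1, Foxo3 and Foxo4, which lie below AKT. Of these 13, 2 rose and 0 fell over the 12 libraries, with 2 higher and 1 lower within titles 7 to 12. Within titles 1 to 6, 2 were higher and 2 lower. Tsc2, which holds mTORC1 in check, reached 634 ± 33.5 in knockout and 368 ± 18.7 in wildtype libraries (SD, n = 6 each; log2 fold change 0.78, limma adjusted p = 3.08e-06), and Foxo4, a transcription factor that AKT keeps out of the nucleus, rose by 0.34 (limma adjusted p = 0.0135). Tsc2 passed in either title run and without the libraries that go against the oxygen label, whereas Foxo4 missed the threshold within titles 7 to 12 and without those libraries (limma adjusted p = 0.108 and 0.107). Of the 3 IGF2 mRNA-binding proteins 0 passed by limma, edgeR or DESeq2, and 0 had an unadjusted limma p under 0.05 over the 12 libraries; without those that go against the oxygen label Igf2bp2 rose by 0.76 (limma adjusted p = 0.00442). As labelled, Igf2bp2 averaged 246 ± 68.5 in knockout and 219 ± 48.5 in wildtype libraries (SD, n = 6 each; limma adjusted p = 0.666).

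Cell type markers were summed in the same libraries, and their calls over all 12 stand beside 10.2% of all tested genes higher and 9.07% lower. The 10 myotube markers added up to 31081 to 34243 normalized counts in knockout and 18624 to 23171 in wildtype libraries; 6 rose and 2 fell, with 6 and 0 within titles 7 to 12 and 6 and 2 within titles 1 to 6. The sum of 5 myoblast and satellite cell markers ran from 261 to 361 in knockout and from 398 to 486 in wildtype libraries. Of these, 3 fell (Myf5, Myod1 and Msc), and the same 3 fell within either title run. Cdh15 went the other way. It rose by 0.51 on the log2 scale within titles 1 to 6 (limma adjusted p = 0.0126). Its values of 0.029 within titles 7 to 12 and 0.27 over all 12 libraries missed the threshold (limma adjusted p = 0.914 and 0.134). The 7 fibroblast markers summed to 81263 to 112815 in knockout and 84035 to 99088 in wildtype libraries, and 1, Dcn, fell. None of the markers in these 3 lists was at 0. Fibroblasts also make several binding proteins, and the part of any of these cells in the member differences was not tested. The 5 macrophage and leukocyte markers summed to 27.3 to 59.1 in knockout and 20.5 to 32.1 in wildtype libraries. The most abundant, the lysosomal protein gene Cd68, ran from 7.78 to 46.7 normalized counts over the 12 libraries and did not pass (log2 fold change 0.73, limma adjusted p = 0.135), Itgam reached 11.3, and Ptprc stayed at or under 1.95. Their part in the member differences was not tested either. Of 4 adipocyte markers 2, Adipoq and Cfd, are among the genes of the table, and neither passed the floor of 3 reads in any library. Both were at 0 in all 6 knockout libraries, and their sum reached at most 1.76 normalized counts in wildtype libraries.

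For each member that rose, the genes with the most similar profile over the 12 libraries were found among 8883 genes, by the root mean square difference of log2 levels, each gene centred on its own mean. For Igf1 these were Pip5k1c, a lipid kinase gene (0.160), and Mtss1l (0.166), where the median over all compared genes was 0.522. Nearest to Igfbp5 were Cavin1, a coat protein of caveolae (0.0803), and Dclk1, a microtubule-binding kinase (0.0917), against a median of 0.412. Igfbp6 was nearest to Pfdn5, a subunit of the prefoldin chaperone (0.0791), and Pink1, a mitochondrial kinase (0.0920), against a median of 0.430. For Igfbp7 they were the tetraspanin gene Cd81 (0.0595) and Ak6, an adenylate kinase gene (0.0602), against a median of 0.360. Profiles share the libraries and their depth, so these values are descriptions.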

How the data were processed

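RNA was sequenced from 12 myotube libraries prepared with a stranded total RNA kit, per the labels' protocols. The deposited values are a signal, normalized counts per gene: per the submitters' processing notes, Trimmomatic 0.33, STAR 2.5.2, RSEM 1.3.3 and DESeq2 were used with mm10. RSEM shares reads among similar genes by estimate. The counting annotation and strand setting are not given in the sources used here. Each column divided by its smallest value above 0 gave whole reads for 100% of values (within 1e-06 reads), and on these edgeR 4.0.16 (quasi-likelihood) called 2411 genes and DESeq2 1.42.0 called 2787 between the labels.

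GENCODE M21 (GRCm38, the build mm10) named 98.8% of the identifiers. limma 3.58.1 with a trended prior was run on log2(normalized count + 1) for 12553 genes with a mean of 10 or more, two-sided, with Benjamini-Hochberg adjustment over all of them; a fold change on this scale understates the change of low genes. One fit used the genotype label alone and a second the 4 runs of titles, which gave the values within titles 1 to 6, within titles 7 to 12 and their difference. Label checks used exact permutation tests. The steps were tested on simulated data.

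The members, the lists and the tests were chosen with earlier results of these data known. Named genes were the 9 members, Igf2, the label check genes, up to 2 risers and 2 fallers in each list (or its most abundant gene where none passed), and the 2 genes with a mean of 50 or more most similar to each member that passed. Alternatives were pseudocounts of 0.5 and 10, other filters and scalings, edgeR, DESeq2, an additive title term, library weights and each library left out. Leaving out the libraries that go against the oxygen label was chosen after seeing the data. R 4.3.3 and Python 3.11.15 were used.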

Additional observations from a re-analysis of the deposited data

Results flagged for a closer look

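In 64 groups of 6 libraries (32 named genes in each label), 5 held a library that stood apart from the other 5 by Dixon's test at the 95% level; chance flags about 1 in 20 such groups. Igfbp2 was lowest in wildtype replicate 2, at 7.74 normalized counts where the other wildtype libraries had 13.9 to 16.8. Igfbp6 was lowest in the same library, at 155, where the others had 229 to 253. Wildtype replicate 2 also held the lowest value of Pfdn5, at 166 where the others had 241 to 275, and the highest of Mtss1l, at 451 where the others had 272 to 324. Pfdn5 and Mtss1l had been picked for profiles like those of Igfbp6 and Igf1 in these libraries, so their flags are no separate evidence on that library. The 64 groups are therefore not independent, and the 5 flags cannot be set against the rate of 1 in 20. Ptpn11 was highest in wildtype replicate 3, at 1177 where the other wildtype libraries had 840 to 919. Wildtype replicate 2 has the fewest reads of the 12, whereas knockout replicate 4 has the highest counting floor. The part of depth in these values was not tested.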

How the results depend on the processing

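The rises of Igf1, Igfbp5, Igfbp6 and Igfbp7 over 12 libraries kept their direction and passed in every setting tried, except Igf1 without the libraries that go against the oxygen label. Leaving out the 8 most abundant genes shifted the median of all genes to -0.17 (log2) and turned the calls into 613 higher and 2201 lower, against 1277 higher and 1139 lower. The same 4 members still rose, calls within titles 7 to 12 came to 4 members, pathway genes to 4 higher and 9 lower, Slc2a1 to -0.12, Igf1r to -0.031 overall and -0.15 within titles 1 to 6, and Igf2r to -0.00803 within titles 1 to 6. Each of these member values lay above that setting's shift. With the title run as an additive term 3785 genes, 7 members (with Igf2r, Igfbp3 and Igfbp4) and 12 higher and 7 lower pathway genes were called. DESeq2 called 5 pathway genes lower, 29 genes for the difference between title runs and 1 member lower there. edgeR and a pseudocount of 10 called 0 genes for that difference. Library weights gave 5 pathway genes lower and -0.048 for Igf1r. Without the libraries that go against the oxygen label 7 members and 17 pathway genes were higher. Leaving out 1 library at a time, the pathway genes lower ran from 3 to 5, the calls for the difference between runs from 1 to 4, and the calls within titles 7 to 12 from 1190 (without wildtype replicate 4) to 3082. Those within titles 1 to 6 ran from 1572 to 2403. Over the same fits Egln3 ran from -0.49 to 0.21 and Slc2a1 from -0.25 to 0.32, never passing. Igf1r within titles 1 to 6 ran from -0.032 to 0.10, Igfbp2 within titles 1 to 6 from -0.084 to 0.43, and its difference between runs from -0.096 to 0.42. Igf2r over 12 libraries passed with TMM (adjusted p = 0.0444) or upper-quartile scaling (0.0470), and without wildtype replicate 2, knockout replicate 2 or knockout replicate 3 (range over single omissions 0.0379 to 0.122). In the other cases the cause was not tested. No paired analysis was possible because the labels give no replicate numbers that the groups share. Depth limits Igfbp2 most.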

Other observations

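Per kilobase, the binding proteins together stood at 3.15 ± 0.305 times the ligands Igf1 and Igf2 together in knockout libraries and at 4.05 ± 0.663 times in wildtype libraries (SD, n = 6 each). The ranges overlapped, from 2.76 to 3.56 in knockout and from 2.90 to 4.76 in wildtype libraries. Within titles 7 to 12 they did not, with 3.14 to 3.56 in knockout and 3.88 to 4.76 in wildtype libraries, whereas within titles 1 to 6 they did, with 2.76 to 3.11 in knockout and 2.90 to 4.51 in wildtype libraries. The level of Igf2r over that of Igf1r per kilobase followed the title runs, at 16.7 ± 0.595 in knockout replicates 4 to 6 and 21.4 ± 1.48 in knockout replicates 1 to 3, and at 14.8 ± 1.32 in wildtype replicates 4 to 6 and 19.4 ± 0.449 in wildtype replicates 1 to 3 (SD, n = 3 each). Igf2 over Igf1 per kilobase averaged 83.9 ± 11.6 in knockout and 84.4 ± 19.7 in wildtype libraries (SD, n = 6 each), and the difference ran opposite ways in the title runs. Within titles 7 to 12 the ratio was 92.6 ± 9.64 in knockout and 101 ± 9.60 in wildtype libraries, with overlap, and within titles 1 to 6 it was 75.1 ± 3.33 in knockout and 67.3 ± 1.16 in wildtype libraries, without overlap (SD, n = 3 each). None of these ratios was tested.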
